A study of Mus musculus with 6 samples.

Results

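The pentose phosphate pathway enzymes were chosen by gene symbol, as G6pdx, Pgls, Pgd, Rpia, Rpe, Tkt and Taldo1, by a rule that uses no measured value, although earlier results of these data were known when the list was drawn up. The deposited table held 6 of these 7, among 6532 genes in all. Rpia, the ribose phosphate isomerase, was not among its rows and was not analysed here. All 6 passed the minimum of 64 CDS reads on average, which removed 0 genes of the table.

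The pathway branches from glycolysis at glucose 6-phosphate. Its oxidative branch turns this sugar into a pentose phosphate and reduces NADP to NADPH, which cells use for lipid synthesis and for defence against peroxides. Its non-oxidative branch interconverts sugar phosphates, so that pentoses can be sent to nucleotide synthesis or returned to glycolysis above the step of pyruvate kinase. Proliferating cells such as embryonic stem cells are known for a high demand for both products.

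The cells were E14, an established line of mouse embryonic stem cells, grown on gelatin in serum medium with LIF. Wild-type cells were transfected for 36 h at 20 nM with siRNAs without a target (siCtrl) or with a pool against pyruvate kinase M (siPKM), were passaged 16 h before harvest, and were given cycloheximide at 100 µg/ml for 2 min, an inhibitor that holds ribosomes in place. Each of these 2 groups gave 1 RNA library, from total RNA after removal of rRNA, and 1 footprint library of the fragments that ribosomes protect (RPF), made with RNase A and RNase T1. A further 2 libraries were iCLIP replicates, from cells whose PKM2 carried a FLAG-HA tag and was crosslinked to RNA by 0.35 J per cm2 of UV light. They are counts of the places where reverse transcription stopped, often beside a crosslinked base. No CLIP library of untagged cells was among the samples, so stops include background, and nothing in the labels says that the replicates came from separate cultures.

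The 4 siRNA libraries held between 10357272 and 15193841 reads in coding sequences (CDS) and the CLIP replicates 677701 and 670725 stops. The targeted gene, named Pkm2 in the table, had the lowest siPKM over siCtrl ratio of all genes, at -1.71 (log2) in RNA and -1.68 in RPF. Of 9 pluripotency markers 8 were in the table, Nanog not among them. Their summed level was 4199 CPM (CDS reads scaled to the library's sum) in siCtrl RNA and 4084 in siPKM RNA. Few markers of other cells were in the table. They were 3 of 7 for trophoblast, with summed RNA levels of 77.5 and 83.5 CPM in siCtrl and siPKM, 2 of 7 for primitive endoderm (206 and 365 CPM), 1 of 5 for fibroblasts (229 and 304 CPM) and 3 of 4 for neural cells (177 and 125 CPM). Members of 1 list differed among themselves: in RNA log2 ratios the keratin Krt8 stood at 0.59 and Tfap2c at -0.60, the laminin Lama1 at 0.82 and Cubn at 0.07, and the pluripotency factors Esrrb at 0.55, Lin28a at -0.38 and Zfp42 at -0.29. The neural markers were all lower, with Tubb3 at -0.64, Nes at -0.54 and Pax6 at -0.15. The part of these differences in the results below was not tested, and fewer cells of a type cannot be told apart from less RNA per cell in bulk libraries.

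Whether knockdown of pyruvate kinase went with other levels of the pathway's messages was asked first. Of the 6 enzymes 0 were at least 1.5-fold higher in siPKM RNA, where 2.88% of all genes were. Likewise 0 were at least 1.5-fold lower, where 1.24% were. These counts of 0 are near the background shares, so they show nothing particular to the pathway. The enzyme nearest to that size was Rpe of the non-oxidative branch, at 0.754 times its control level. With 1 library a group no test of the conditions was possible and no difference has a replicate check. All ratios are relative to the median gene of the table, and their 95% intervals come from the read counts and cover counting error only.

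G6pdx (NM_008062), glucose 6-phosphate dehydrogenase, catalyses the first and rate-limiting step of the oxidative branch. It had 240 CDS reads in siCtrl RNA and 191 in siPKM RNA, or 19.8 and 18.4 CPM. The log2 ratio was -0.15 with an interval of -0.43 to 0.13, so that no difference was detectable at this depth. Over all reads on the transcript, UTRs included, the ratio was 0.035. G6pdx had the fewest RNA reads of the 6 and hence the widest interval. Footprints stood at 840 reads in siCtrl and 746 in siPKM, or 55.3 and 59.4 CPM, a log2 ratio of 0.08 (-0.06 to 0.23). Mice carry a retroposed copy, G6pd2, whose reads may not be separable, and the gene overlaps Ikbkg in the GRCm38.p6 annotation, so its values are uncertain to that extent.

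Pgls (NM_025396), the lactonase of the second step, had 1270 CDS reads in siCtrl RNA and 1147 in siPKM RNA, or 105 and 111 CPM. It was the only enzyme of the 6 with an RNA ratio above 0, at 0.03 (-0.08 to 0.15). Its footprints were at 86.0 CPM in siCtrl and 84.0 in siPKM, with a log2 ratio of -0.05 (-0.17 to 0.06). Neither difference exceeded counting error.

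Pgd (NM_001081274), 6-phosphogluconate dehydrogenase, makes the second NADPH and releases the first carbon of the sugar. It stood at 99.4 CPM in siCtrl RNA and at 100.3 in siPKM RNA, with a log2 ratio of -0.03 (-0.15 to 0.09). Its footprints, 5143 reads in siCtrl and 4207 in siPKM, gave 338 and 335 CPM and a log2 ratio of -0.04 (-0.10 to 0.02). In each kind of library the siPKM value of the oxidative enzymes thus lay within counting error of the siCtrl value.

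Rpe (NM_025683), the epimerase that turns ribulose 5-phosphate into xylulose 5-phosphate, differed most. Its CDS reads were 960 in siCtrl RNA and 639 in siPKM RNA, or 79.2 and 61.7 CPM. The footprint reads were 969 and 604, or 63.8 and 48.1 CPM. Both siPKM libraries were thus lower than their controls, with log2 ratios of -0.41 (-0.55 to -0.26) in RNA and -0.43 (-0.58 to -0.28) in RPF. In RNA 4.30% of all genes had a lower ratio, and in RPF 3.90%. The gene overlaps Kansl1l in the GRCm38.p6 annotation, and whether strand was used in counting is not given in the sources used here.

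Over the 4 siRNA libraries, the genes nearest to Rpe in log2 CPM, each centred on its own mean, were Ooep, A230046K03Rik (now Washc4) and 2610528E23Rik (now Cmss1). Their Euclidean distances were 0.026, 0.030 and 0.055, and their RNA ratios -0.42, -0.44 and -0.39.

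Tkt (NM_009388), transketolase, moves pieces of 2 carbons between sugar phosphates. It had the most reads of the 6, with 11920 in siCtrl RNA and 9331 in siPKM RNA, or 983 and 901 CPM. The log2 ratio was -0.17 (-0.21 to -0.13). Footprints were at 891 CPM in siCtrl and 800.3 in siPKM, a log2 ratio of -0.18 (-0.21 to -0.14). Both differences were small but larger than counting error.

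Taldo1 (NM_011528), transaldolase, moves pieces of 3 carbons and completes the return to glycolysis. It stood at 353 CPM in siCtrl RNA and 333 in siPKM RNA, with a log2 ratio of -0.13 (-0.20 to -0.07). Its footprints were at 376 and 355 CPM, with a log2 ratio of -0.10 (-0.16 to -0.05). All 3 non-oxidative enzymes measured were therefore lower in both siPKM libraries by more than counting error, and the 3 oxidative enzymes were not. In RNA this depends on depth as well as on size. The RNA ratio of the oxidative G6pdx, -0.15, was lower than that of Taldo1. With 240 and 191 reads, its interval of -0.43 to 0.13 included the ratios of both Taldo1 and Tkt. In RPF G6pdx stood at 0.08 (-0.06 to 0.23). The split by branch was noticed after the values were seen, and the difference between the branches was not tested. A ratio of about the size of Tkt's is common in the table, where 23.0% of all genes had a lower RNA ratio. The middle part of all RNA ratios, from the 25th to the 75th percentile, ran from -0.16 to 0.18, and that of all RPF ratios from -0.16 to 0.16. Tkt lay just below this part in both, and Taldo1 lay inside it in both. How many of all genes differed by more than counting error was not counted, so a difference of that kind is not particular to these enzymes.

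**Figure D1:**
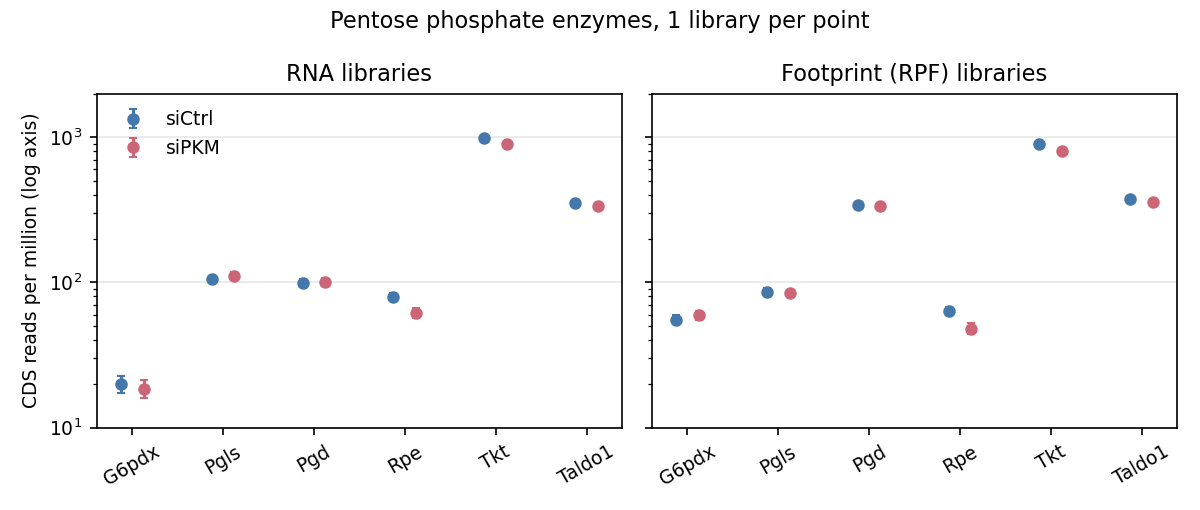
CDS level of each enzyme in CPM (log axis) in the RNA libraries (left) and the footprint libraries (right), siCtrl in blue and siPKM in red. Each point is 1 library and bars are 95% Clopper-Pearson intervals from the read counts, mostly smaller than the points; Rpe goes from 79.2 to 61.7 in RNA, while Pgd stays at 99.4 and 100.3. CDS lengths differ, so heights are not to be compared between genes.

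As a list, the 6 enzymes had a median of -0.14 among their RNA ratios and of -0.08 among their RPF ratios, with 5 of 6 below 0 in each, beside a median of 0 over all genes by construction. In RNA 4 of 6 were below 0 without centring, where Pgd stood at 0.013, and 4 of 6 over all reads of the transcript, where G6pdx stood at 0.035. In RPF 0 of the 6 were at least 1.5-fold higher, against 2.66% of all genes, and 0 were at least 1.5-fold lower, against 1.53%. The count of 0 members is near these background shares.

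Translation efficiency (TE), the footprints per message, was compared next. Its siPKM over siCtrl ratios had a median of -0.01 among the 6 enzymes, and all 6 intervals included 0. The share of all genes with such an interval was not counted. The 25th to 75th percentile of all TE ratios ran from -0.13 to 0.12, narrower than some of these intervals. None of the 6 was at least 1.5-fold higher in TE, where 0.184% of all genes were, or at least 1.5-fold lower, where 0.827% were. These counts of 0 are near the background shares. The highest TE ratio was that of G6pdx at 0.23 (-0.08 to 0.54), above 89.7% of all genes, and the lowest that of Pgls at -0.09 (-0.25 to 0.07). Tkt had the narrowest interval, at -0.01 (-0.06 to 0.05). Pgd stood at -0.01 (-0.14 to 0.13), Rpe at -0.02 (-0.23 to 0.18) and Taldo1 at 0.03 (-0.06 to 0.11). The lower footprint counts of Rpe, Tkt and Taldo1 thus went with RNA counts lower by a like amount.

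**Figure D2:**
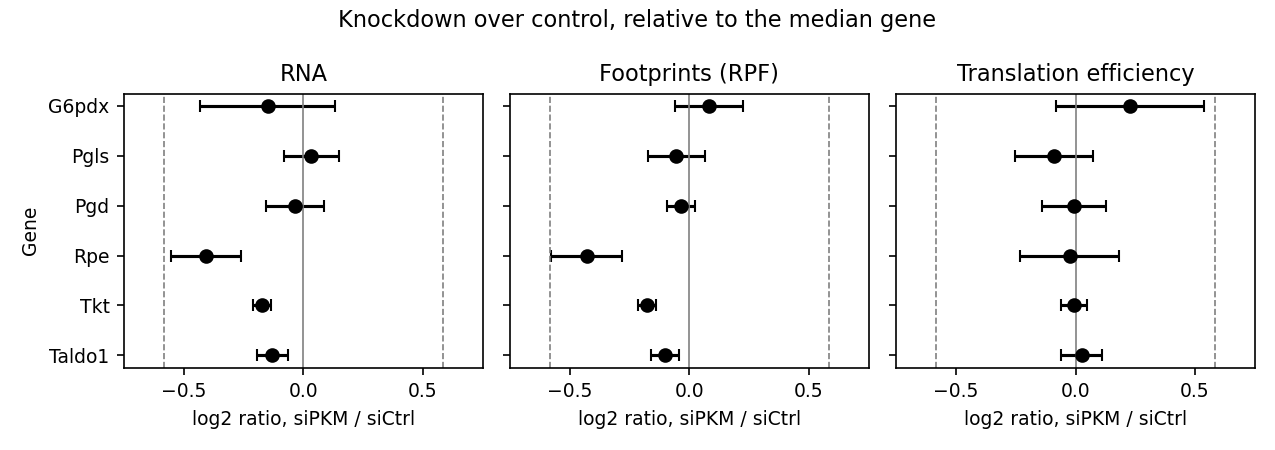
Log2 ratios of siPKM over siCtrl for RNA, footprints and translation efficiency of the 6 enzymes, relative to the median gene. Bars are 95% intervals from the read counts, the solid line marks 0 and the dashed lines 1.5-fold; Rpe lies at -0.41 in RNA and -0.43 in footprints, and all 6 intervals of translation efficiency include 0.

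The enzymes differed far more among themselves in the TE of a single condition than between conditions. In a ratio of footprints to RNA over the same CDS the length cancels. Differences between genes in how RNase cutting or alignment recovers their reads need not cancel, and were not tested. The intervals of TE do not include them. In the siCtrl libraries Pgd had a log2 TE of 1.94 (1.85 to 2.03) relative to the median gene, 3.85-fold above it and at rank 133 of 6532. G6pdx followed at 1.66 (1.45 to 1.86), 3.15-fold above the median gene and at rank 205. Both are the NADPH-making dehydrogenases of the pathway. A log2 TE of at least 1 was reached by 10.0% of all genes, and by 2 of the 6 enzymes.

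The other 4 lay near the middle of the table. Taldo1 had a control log2 TE of 0.27 (0.21 to 0.32) and Tkt of 0.03 (-0.00 to 0.07). Pgls stood at -0.11 (-0.22 to 0.00) and Rpe at -0.14 (-0.26 to -0.01). Pgls, the enzyme between both dehydrogenases, thus did not share their high TE. From high to low, the interval of Pgd overlapped slightly with that of G6pdx, those of Tkt and Pgls met at about 0, and those of Pgls and Rpe overlapped widely.

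The order was nearly the same in the siPKM libraries. There Pgd had a log2 TE of 1.91 (1.82 to 2.01) and G6pdx of 1.86 (1.63 to 2.09), at ranks 105 and 114. Taldo1 was again at 0.27, Tkt at 0.01, Rpe at -0.18 and Pgls at -0.22, so that Rpe and Pgls changed places within their counting error. These libraries come from other cells than the siCtrl ones and repeat the high TE of both dehydrogenases under knockdown, although not in replicates of 1 condition. A bias of a gene's reads that is shared by both conditions would recur as well. In the authors' deposited table, whose values were not centred, the log2 TE of Pgd was 1.78 in siCtrl and 1.75 in siPKM, and that of G6pdx 1.49 and 1.70.

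**Figure D3:**
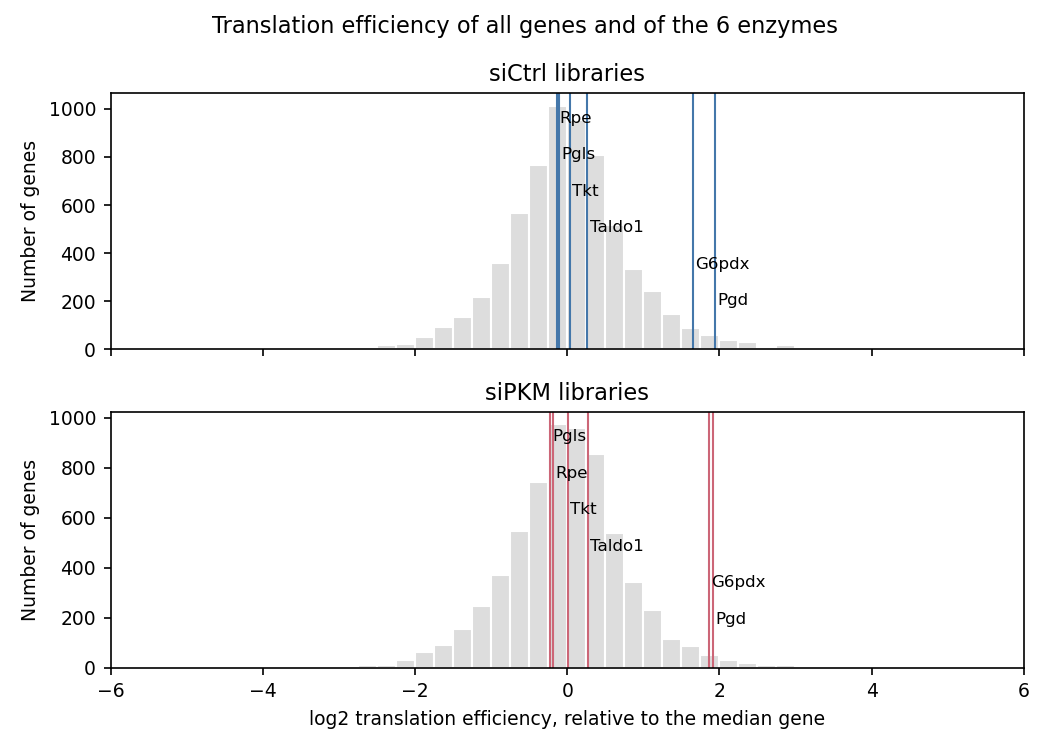
Number of genes by log2 translation efficiency relative to the median gene (grey bars, bins of 0.25), with the 6 enzymes as lines, in the siCtrl (top) and siPKM (bottom) libraries. Pgd (1.94 and 1.91) and G6pdx (1.66 and 1.86) lie in the upper tail in both, and the other 4 near the middle.

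The ratios above used the inner CDS alone, and the share of reads outside it differed widely among the members. G6pdx was the only one of the 6 with more than 2% of its footprints in the 5' UTR. Its share was 8.28% (84 of 1014 reads, 95% Clopper-Pearson interval 6.66 to 10.2) in siCtrl and 10.2% (91 of 895, 8.27 to 12.3) in siPKM. The median gene had 3.85% and 3.71% there, and 70.6% and 76.9% of genes had a smaller share. The 5' UTR share of G6pdx RNA reads was smaller, 4.70% in siCtrl and 6.05% in siPKM. However, 46.6% and 50.5% of its RNA reads lay in the 3' UTR, against 2 of 1014 and 1 of 895 footprints. Set beside the inner CDS, the 5' UTR had no excess of footprints over RNA. The siCtrl counts of 5' UTR and inner CDS were 24 and 240 in RNA, and 84 and 840 in RPF. In siPKM they were 28 and 191 in RNA, and 91 and 746 in RPF. The siCtrl and siPKM intervals of the footprint share overlapped, so a difference between conditions was not detectable.

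For Tkt, Pgd, Taldo1 and Pgls the 5' UTR held a smaller share of footprints than of RNA reads. Tkt had 1.37% of its siCtrl footprints there against 4.39% of its RNA reads, Pgd 0.813% against 2.88%, and Taldo1 0.129% against 2.60%. Pgls had 1 footprint of 1417 in its 5' UTR in siCtrl and 0 of 1147 in siPKM, which allows a share of up to 0.262%. Rpe had no read in the 5' UTR in any of the 4 libraries, RNA included. Its 0 of 3281 siCtrl RNA reads allow up to 0.0914%, so the row as annotated gave no 5' UTR signal.

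Rpe also stood apart at the other end of its transcript. Of its RNA reads 67.6% (66.0 to 69.2) in siCtrl and 68.1% (66.1 to 70.0) in siPKM lay in the 3' UTR, against 26.2% and 26.3% for the median gene. Tkt was at the other extreme, with 2.32% in siCtrl and 1.85% in siPKM, and only 4.61% of genes had a smaller share in siCtrl. G6pdx had 46.6% and 50.5%, Pgd 33.2% and 31.4%, Taldo1 13.7% and 13.9% and Pgls 5.32% and 4.13%. UTR lengths were not in the table, and a share follows them. Footprints in the 3' UTR were few for each member, from 0 of 5410 for Pgd to 6 of 1133 for Rpe in siCtrl.

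At both ends of the CDS Rpe had the largest footprint shares of the 6. The first 15 codons held 9.80% (8.13 to 11.7) of its siCtrl footprints and 10.4% (8.23 to 12.8) of its siPKM footprints, against 4.32% and 4.24% for the median gene. Its RNA shares there, 2.22% and 2.95%, are of totals that are mostly 3' UTR reads, unlike those of its footprints. Set beside the inner CDS the gap was smaller. In siCtrl these codons held 73 RNA reads beside 960 on the inner CDS, and 111 footprints beside 969. The last 5 codons held 30 RNA reads and 47 footprints in siCtrl. As shares of all Rpe footprints, these last 5 codons held 4.15% (3.06 to 5.48) in siCtrl and 4.62% (3.20 to 6.43) in siPKM. That is at ranks 208 and 157 of all genes, where the median gene had 0.573% and 0.585%. Pgls had 1.91% and 2.18% there, and Pgd only 0.222% and 0.226%. Reads at these ends were left out of the ratios above, and a short CDS gives them a larger share.

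**Figure D4:**
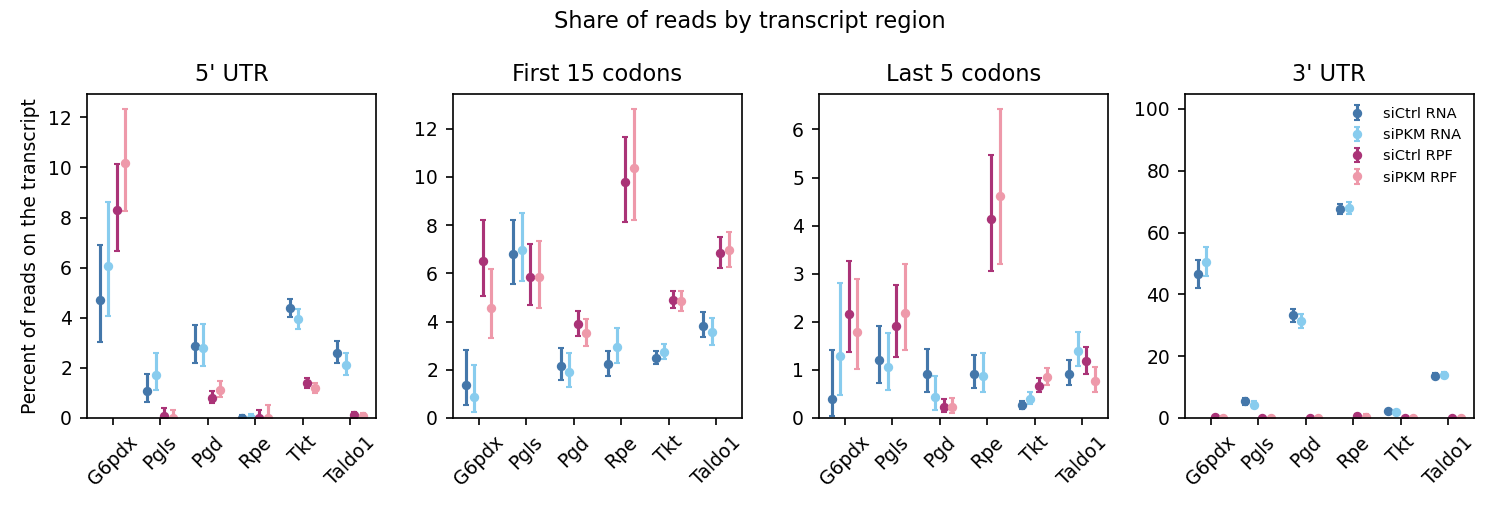
Percent of each transcript's reads in the 5' UTR, the first 15 codons, the last 5 codons and the 3' UTR, for RNA (blue) and footprints (red) in siCtrl (dark) and siPKM (light). Bars are 95% Clopper-Pearson intervals; G6pdx is the highest in 5' UTR footprints (8.28% and 10.2%), and Rpe in footprints on the last 5 codons (4.15% and 4.62%) and in 3' UTR RNA reads (67.6% and 68.1%).

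The CLIP libraries were used to ask which of these messages were crosslinked to tagged PKM2. Tkt had the most stops, 379 and 361 in the replicates, or 549 ± 14.9 CPM (SD, n = 2), at rank 285 of all genes. Rpe had 142 and 164 stops, or 227 ± 24.7 CPM, and Pgd 66 and 75, or 105 ± 10.2. The other 3 were below the median gene, which had 80.8 CPM. Taldo1 had 45 and 42 stops (64.5 ± 2.67 CPM), G6pdx 37 and 31 (50.4 ± 5.92) and Pgls 22 and 14 (26.7 ± 8.20).

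Stops follow the amount and length of an RNA, so they were set over the siCtrl RNA reads of the whole transcript. On this log2 scale, where the median gene stood at 0.07, G6pdx was highest at 0.93 ± 0.17 (SD, n = 2), above 71.3% of genes. Rpe stood at 0.41 ± 0.16 with 0.30 and 0.52 in the replicates, Pgd at 0.02 ± 0.14, and Tkt at -0.32 ± 0.04. Tkt, with the most stops, thus lay below the median gene once stops were set over RNA. Over CDS reads instead of all RNA reads, Rpe stood at 1.52, G6pdx at 1.36 and Tkt at -0.84, so the value of Rpe rests on how its 3' UTR reads are counted.

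Taldo1 and Pgls were the low end of the pathway. Taldo1 had -2.07 and -2.16 in the replicates, a mean of -2.12 ± 0.06, and 5.60% of genes were lower. Pgls had -1.22 and -1.84, a mean of -1.53 ± 0.44, and 10.7% of genes were lower. Their replicates did not overlap with those of the other 4 enzymes. The gap from G6pdx to Taldo1 was far larger than the SD of either gene. Both replicates were set over the same siCtrl RNA library, however, so the SD does not include the error of that library. Both genes lay between the 5th and 95th percentiles of all genes, at -2.27 and 2.40.

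**Figure D5:**
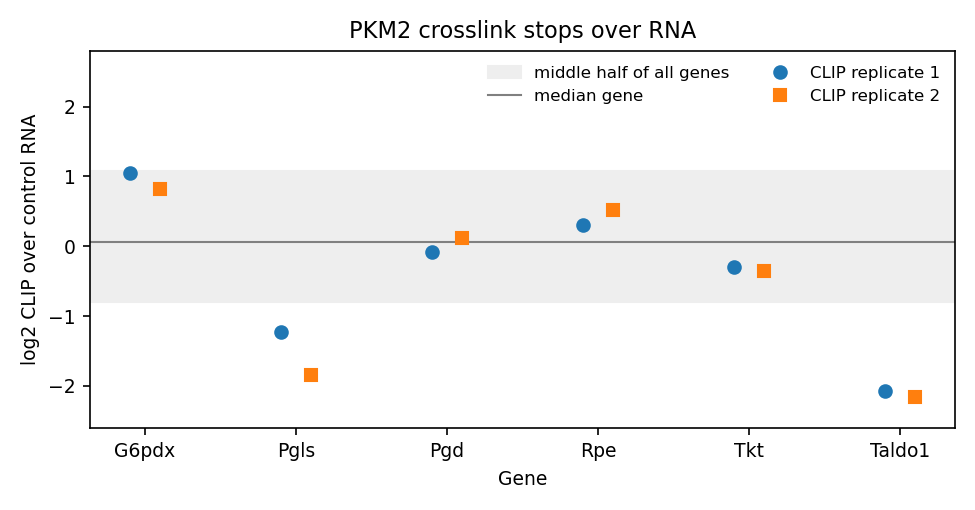
Log2 CLIP over RNA (CPM of stops over CPM of siCtrl RNA on the whole transcript) for each enzyme, with replicate 1 as circles and replicate 2 as squares. The grey line marks the median gene (0.07) and the grey band the 25th to 75th percentile of all genes; Pgls and Taldo1 lie below the band in both replicates, and G6pdx near its upper edge.

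The other genes of the same metabolism were described from lists of the neighbouring reactions. Of 16 genes for ribose and sugar phosphate reactions next to the pathway, 8 were in the table. None was at least 1.5-fold higher in RNA (2.88% of all genes), RPF (2.66%) or TE (0.184%), or lower (1.24%, 1.53% and 0.827%). These counts of 0 are near the background shares. The medians were -0.12 in RNA and -0.02 in RPF. The lowest in RNA was Prpsap2, a regulatory subunit associated with phosphoribosyl pyrophosphate synthetase, at -0.35 (-0.48 to -0.23) in RNA and -0.02 (-0.13 to 0.09) in RPF. The highest was Tigar, a sugar bisphosphatase that favours the pathway over glycolysis, at 0.12 (-0.02 to 0.27) and 0.04.

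Enzymes that supply NADPH or NADP outside the pathway, together with relatives of these enzymes, were listed next. Of 14 named, 10 were in the table, and the median ratio was 0.10 in RNA and 0.17 in RPF. Of these 10, 1 was at least 1.5-fold higher in RNA, where 2.88% of all genes were, 2 in RPF (2.66% of all genes) and 0 in TE (0.184%). None was at least 1.5-fold lower in RNA (1.24%), RPF (1.53%) or TE (0.827%). Idh2, the mitochondrial NADP-dependent isocitrate dehydrogenase, had 1279 CDS reads in siCtrl RNA and 2305 in siPKM RNA, a log2 ratio of 1.03 (0.93 to 1.13) and rank 17 of 6532. Its footprints, 1176 and 2191, gave 1.15 (1.05 to 1.25) and rank 10. Me1, the cytosolic malic enzyme, stood at 0.51 (0.23 to 0.79) in RNA and 0.90 (0.68 to 1.13) in RPF, from 193 and 243 RNA reads. Me2, a mitochondrial malic enzyme, was lowest in RNA at -0.06 (-0.14 to 0.02).

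Genes of thiol, glutathione and peroxide defence, some of which use NADPH, (22 of 25 in the table) had a median RNA ratio of -0.05 and a median RPF ratio of 0.05, with 1 gene of 22 at least 1.5-fold higher in each and 0 lower. Over all genes 2.88% were that much higher in RNA and 2.66% in RPF, and 1.24% and 1.53% that much lower. The one in RNA was catalase, Cat, which breaks down hydrogen peroxide, at 0.61 (0.45 to 0.78) in RNA and 0.50 in RPF. The one in RPF was Txnrd3, a thioredoxin reductase, at 0.76 (0.47 to 1.05), with 0.51 in RNA. The peroxidase Prdx6 was lowest in RNA, at -0.36 (-0.47 to -0.26) and -0.26 in RPF.

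NRF2, a transcription factor of the oxidative stress response, is known to act on several pentose phosphate genes, and its own pathway was listed for that reason. Of 15 genes 12 were in the table, 4 of them (Gclc, Gclm, Txnrd1 and Srxn1) also in the list above. The medians were 0.18 in RNA and 0.12 in RPF. None was at least 1.5-fold higher in RNA (2.88% of all genes), RPF (2.66%) or TE (0.184%). Likewise 0 were at least 1.5-fold lower (1.24%, 1.53% and 0.827% of all genes), so the counts are near the background shares. Blvrb, a biliverdin reductase, was highest in RNA at 0.54 (0.29 to 0.79) and 0.56 in RPF, and Hmox1, heme oxygenase, lowest at -0.40 (-0.54 to -0.25) and -0.47. The message of NRF2 itself, Nfe2l2, stood at 0.35 in RNA and 0.37 in RPF.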

How the data were processed

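A single table held all 6 libraries. Its raw counts of reads per transcript region and of CLIP stops per transcript were deposited by the authors, as were log2 RPM, log2 TE and log2 CLIP enrichment. Reads were handled with cutadapt and Bowtie2 against mm9, per the submitters' processing notes. No versions are named, and the program that counted reads and what was done with multiply aligned reads are not given in the sources used here. Every row had at least 151 CDS reads in each siRNA library. For symbols with several rows the row with the most RNA reads was kept, which dropped 3 of 6535 rows. RefSeq identifiers matched all 6 enzymes to a gene table of GRCm38.p6, used for names and overlaps only. No coordinates are given because that build differs from mm9.

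Reads on the CDS, less its first 15 and last 5 codons, plus 0.5, were scaled by the library's CDS sum (all rows), and log2 ratios were centred on the median gene. TE ratios are RPF minus RNA ratios, centred again, so a shift common to the whole table is invisible. Intervals are exact conditional binomial for RNA and RPF, from the delta method for TE, and exact Clopper-Pearson for shares. A count of 0 was taken to allow up to 3 counts. Intervals and limits cover counting error only, since without molecular identifiers PCR copies count as separate reads. CLIP over RNA is the mean of both replicates' log2 ratios. No count test was run, since there was 1 RNA and 1 RPF library for each siRNA. Python 3.11.15, SciPy 1.17.1, and, for alternative scaling factors, edgeR 4.0.16 and DESeq2 1.42.0 were used. RNA and RPF ratios were tested on simulated counts with counting error only and the same folds in both. A change of TE was not simulated, and of the intervals only the lower bound in RNA was checked.

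The members and lists were chosen with earlier results of these data known. All members were named. Of each other list except the cell type markers, genes at least 1.5-fold apart and the highest and lowest in RNA were named. Nfe2l2 and the named cell type markers were added after their values were seen. Likeness was defined over log2 CPM for the member whose RNA ratio was farthest from 0, Rpe.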

Additional observations from a re-analysis of the deposited data

How the results depend on the processing

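The number of enzymes at least 1.5-fold apart was 0 in RNA, RPF and TE under each alternative run: no centring, edgeR TMM or DESeq2 size factors, the authors' deposited RPM, 5 reads added, no minimum, a minimum 4 times as high (which leaves out G6pdx), the whole CDS and, for RNA, all reads of the transcript. The median log2 ratio ranged from -0.14 to -0.09 in RNA, from -0.09 to -0.06 in RPF and from -0.03 to 0.00 in TE. Rpe ranged from -0.41 to -0.35 in RNA and from -0.43 to -0.41 in RPF. The RNA ratio of Tkt went to -0.13 without centring, outside its counting interval, where that of Pgd changed sign, to 0.013, and that of G6pdx changed sign, to 0.035, over all reads of the transcript. The median of CLIP over RNA, -0.15, moved by more than its SD, to -0.38 over CDS reads, to -0.053 over siPKM RNA, to -0.10 with 5 counts added and to 0.11 in the authors' deposited enrichment, which is not scaled to the table's RNA sum. It lay between -0.18 and -0.11 with 1 replicate left out. Control TE of Pgd ranged from 1.89 to 1.94 and of G6pdx from 1.66 to 1.86 under alternatives chosen after seeing the data (whole CDS, the authors' deposited TE centred on its median gene, siPKM libraries). No paired analysis was possible because each siRNA had a single RNA and a single RPF library and the CLIP replicates form 1 group. G6pdx, with 240 and 191 RNA reads, and Pgls, with 22 and 14 stops, were limited most by depth.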
